A study of Mus musculus with 40 samples.

Results

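The genes described here are 36 of the 20805 genes in the count table and make up the folding, quality control and stress response machinery of the endoplasmic reticulum (ER). They are 9 ER chaperones and co-chaperones, 8 lectin chaperones and disulfide isomerases, 8 genes of ER-associated degradation (ERAD), 2 subunits of the translocation channel, 7 sensors and transcription factors of the unfolded protein response (UPR) and 2 targets of its PERK and ATF4 branch. They were picked by gene name, with the RNA values of the libraries below already known, so their RNA differences are given as a description of these libraries, and the adjusted p-values are those of a fit to all genes tested. RNA was measured in whole midbrain of Wt mice and of mice carrying an A30P alpha-synuclein transgene on both alleles (aSyn Tg), each at 3 mo and 15 mo. The groups hold 4 input libraries (Wt 3 mo) or 5 (Wt 15 mo, aSyn Tg 3 mo and aSyn Tg 15 mo), and m6A was read from peak lists made once per group from immunoprecipitated RNA. All mice were male, the Wt mice were C57BL/6J littermates, and no group received a treatment. The study's text places the transgene under the Thy-1 promoter, which is active in many neurons and not only in dopaminergic cells, while the strain name it gives cites a Th promoter and a second mutation. The libraries in the table are numbered 1 to 6 within a group, not always as in the labels, and the labels do not say that each came from its own animal, so p-values measure the spread between these samples.

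Secreted and membrane proteins enter the ER through the Sec61 channel, fold with the help of the Hsp70 chaperone BiP (encoded by Hspa5), its J-domain partners and the Hsp90 of the ER, and acquire disulfide bonds from protein disulfide isomerases, while calnexin and calreticulin hold proteins that carry immature glycans. Proteins that fail to fold are moved back to the cytosol and degraded by ERAD. When unfolded proteins accumulate, the sensors IRE1 (Ern1), PERK (Eif2ak3) and ATF6 signal to the nucleus: IRE1 splices the Xbp1 mRNA into the form that encodes an active factor, ATF6 is cut to release one, and PERK favours translation of ATF4, which raises CHOP (Ddit3). ER stress has been studied in models of Parkinson's disease.

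The promoters of many of these genes carry the ER stress response element (ERSE), a site bound by NF-Y at its CCAAT letters and by ATF6 or XBP1 at its CCACG letters. The letters were not searched to pick the genes, but the element is a known feature of this pathway. Its share among the members therefore describes the choice of genes and is no independent result. RefSeq promoter windows (build GRCm38.p6, 250 bases before to 50 after the start) were at hand for 31 of the 36 genes, not for Hyou1, Manf, Derl1, Sec61a1 and Atf6. The letters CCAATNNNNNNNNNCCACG were found on either strand in 9 of these 31 genes (29.0%), against 37 of all 27025 genes with a window (0.137%). The 10 copies are shown because the genes with the lowest RNA in aSyn Tg mice at 3 mo are read against them below; capitals mark the fixed letters, and a copy that reads CGTGG first lies on the opposite strand.
Hspa5, chr2:34772013-34772055, + strand: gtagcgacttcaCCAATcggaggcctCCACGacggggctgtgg
Hsp90b1 copy nearer the start, chr10:86705521-86705563, - strand: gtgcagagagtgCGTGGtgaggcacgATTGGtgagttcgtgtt
Hsp90b1 distant copy, chr10:86705626-86705668, - strand: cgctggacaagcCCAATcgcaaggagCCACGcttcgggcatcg
Dnajc3, chr14:118937815-118937857, + strand: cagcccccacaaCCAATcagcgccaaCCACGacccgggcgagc
Creld2, chr15:88819508-88819550, + strand: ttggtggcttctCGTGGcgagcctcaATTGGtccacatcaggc
Calr, chr8:84847063-84847105, - strand: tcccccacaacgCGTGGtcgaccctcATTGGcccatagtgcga
Canx, chr11:50325788-50325830, - strand: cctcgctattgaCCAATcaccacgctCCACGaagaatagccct
Pdia6, chr12:17266479-17266521, + strand: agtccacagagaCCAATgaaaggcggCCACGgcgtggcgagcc
Syvn1, chr19:6046520-6046562, + strand: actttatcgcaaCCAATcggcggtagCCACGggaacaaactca
Derl3, chr10:75893230-75893272, + strand: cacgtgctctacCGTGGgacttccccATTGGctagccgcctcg

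All 10 copies lay before the start, from 212 bases (the distant Hsp90b1 copy) to 44 bases (Syvn1) upstream at their first base. With 1 mismatch allowed in the fixed letters, 15 members and 1.72% of all genes held the element. The ERSE-II letters ATTGGNCCACG, which share CCACG with the ERSE, were found in Herpud1 and Dnajb11 and in 0.0444% of all genes. The Herpud1 copy lay upstream, whereas the Dnajb11 copy lay 7 bases after the start. These 2 copies are shown because both genes are compared by age and genotype below.
Herpud1, chr8:94386365-94386399, + strand: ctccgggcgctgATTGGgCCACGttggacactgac
Dnajb11, chr16:22857843-22857871, + strand: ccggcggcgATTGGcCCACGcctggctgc

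The UPR element TGACGTGG, whose last letters are the complement of CCACG, was found in Txndc5 and Txndc11 and in 0.714% of all genes. The cAMP response element TGACGTCA was in 0 members and 2.03% of all genes, and the amino acid response element TTGCATCA was in Herpud1 alone among members and in 1.03% of all genes. All letters were searched on both strands, and a match describes the sequence, not binding.

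**Figure D1:**
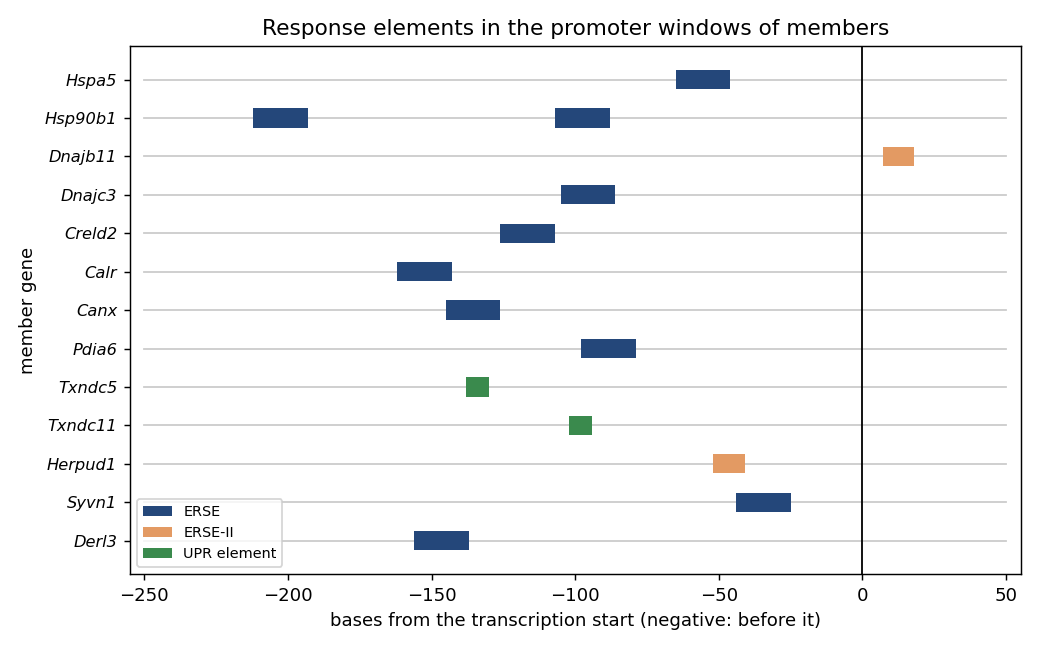
Positions of 3 response elements in the promoter windows of members (horizontal axis in bases from the transcription start, 250 before to 50 after; 1 line per gene that holds an element; bars span the element). The ERSE copies of 9 genes lie upstream of the start, and the ERSE-II of Dnajb11 lies after it.

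Across the series, the 19 libraries held 2163856 to 9195756 reads on genes. Markers of dopaminergic neurons were present in every library (8 of 8 genes, summed 292 to 559 CPM; CPM are read counts scaled to the library's size, with TMM factors). One library stood apart: aSyn Tg 15 mo library 5 had the fewest reads, and its 10 most abundant genes took 10.004% of them against 5.44% to 7.88% elsewhere. For members with values per library, differences between the genotypes at 15 mo are therefore also given without it. Of the other results that involve this group, only some are.

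The members covered a wide range of abundance. Per kb of exon in Wt mice at 3 mo, the calcium-binding lectins led with 176 ± 7.74 RPKM for calreticulin (Calr) and 138 ± 5.5001 for calnexin (Canx), followed by the Hsp90 of the ER (Hsp90b1) at 127 ± 8.57, the ERAD lectin Os9 at 75.7 ± 4.12 and Hspa5 at 75.6 ± 1.39 (mean ± SD, n = 4). Hspa5 and Os9 could not be separated within their SD. The sensors were far lower, at 3.97 ± 0.133 for Ern1, 7.84 ± 0.318 for Atf6 and 8.73 ± 0.373 for Eif2ak3. The lowest were Derl3, at 1.17 ± 0.258, and Trib3, a pseudokinase induced downstream of CHOP, at 0.322 ± 0.148. A gene was tested only where its mean normalised count over the libraries compared was at least 50. Derl3, Sec61b and Trib3 passed this limit in no comparison. With all libraries kept, Sdf2l1 passed it only in fits that contain the Wt 3 mo libraries, the group where its median was highest.

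**Figure D2:**
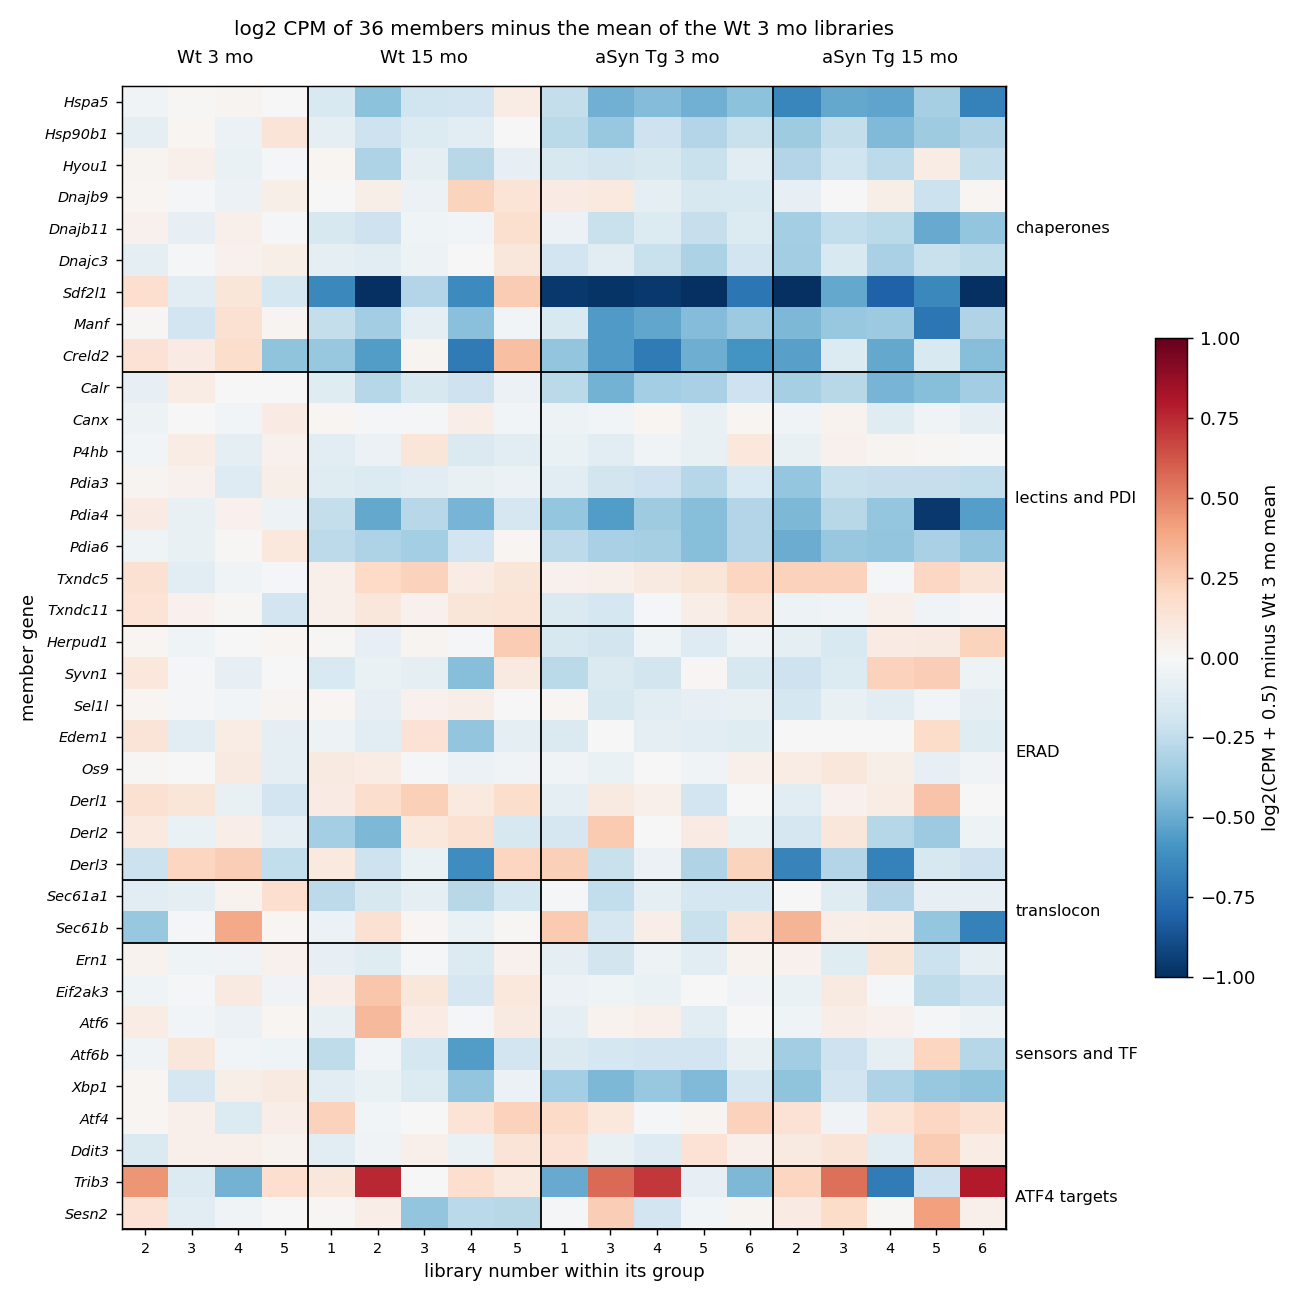
log2(CPM + 0.5) of the 36 members minus their mean in the 4 Wt 3 mo libraries (rows: genes by role; columns: libraries by group; colours stop at -1 and 1). The median over the 9 chaperones lies between -0.38 and -0.19 in the aSyn Tg 3 mo libraries and between -0.37 and -0.24 in the aSyn Tg 15 mo libraries, and between -0.31 and 0.11 in Wt 15 mo.

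The comparison of aSyn Tg with Wt mice at 3 mo asks how the transgene relates to RNA levels before old age. Of the 33 members tested, 8 fell in aSyn Tg mice: 4 of 9 chaperones and co-chaperones, 3 of 8 lectins and isomerases, and the transcription factor Xbp1. They were led by Sdf2l1 (by 50.8%), Creld2 (33.8%), Pdia4 (24.9%), Hspa5 (24.3%) and Xbp1 (22.2%), and 0 rose. With all libraries kept, Sdf2l1 passed the count limit only in fits with the Wt 3 mo libraries, where its median was highest, so its place here depends on that group. Among all 11376 genes tested, 0.835% passed the limit, an adjusted p no higher than 0.05 with at least a 1.2-fold difference (edgeR quasi-likelihood test) and 0.211% (24 genes) passed it lower in aSyn Tg mice. The 8 members are 8 of these 24 genes, a count from which nothing is read because the members were picked on these libraries. In bulk midbrain, less RNA per cell and fewer cells of a type cannot be told apart.

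Of the 9 chaperones and co-chaperones, all had a negative fitted difference and 4 fell. Hspa5, the BiP chaperone that also holds the UPR sensors inactive, measured 311, 322, 325 and 319.9 CPM in the Wt libraries and 271, 229, 236, 229 and 241 in the aSyn Tg libraries (in order of library number, here and below). The groups did not overlap, and aSyn Tg library 1 was the highest of its group. The log2 fold change was -0.40 ± 0.05 (SE), with an edgeR adjusted p of 0.000747. Sdf2l1, a partner of the J-domain protein ERdj3 in the ER, measured 19.6, 16.1, 19.01 and 15.4 CPM in Wt and 8.69, 8.62, 8.701, 7.499 and 10.4 in aSyn Tg, from 44 to 60 reads per aSyn Tg library. Every aSyn Tg library lay below every Wt library, and the log2 fold change of -1.02 ± 0.12 was the largest among members (edgeR adjusted p = 0.000747). Hsp90b1, the ER member of the Hsp90 family, measured 479.7, 516, 489 and 557 CPM in Wt and 422, 391, 442, 415 and 437 in aSyn Tg, again without overlap. Its log2 fold change was -0.27 ± 0.05 (edgeR adjusted p = 0.0133), and 15.7% of its exon bases are shared with other annotated genes.

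Creld2, an ER protein with disulfide isomerase activity, measured 24.6, 23.5, 25.1 and 16.7 CPM in Wt and 16.8, 14.8, 13.4, 15.7 and 14.5 in aSyn Tg. The groups met only through Wt library 5, which was at the level of the highest aSyn Tg library. The log2 fold change was -0.59 ± 0.12 (edgeR adjusted p = 0.0285). Manf, a secreted protein that binds BiP and protects neurons in culture, measured 36.8, 31.99, 40.7 and 37.2 CPM in Wt and 32.9, 24.5, 25.3, 26.9 and 28.4 in aSyn Tg. It lay just outside the limit with a log2 difference of -0.41 ± 0.09 and an edgeR adjusted p of 0.0505. Hyou1, the exchange factor of BiP, had an edgeR adjusted p of 0.0509, but its difference of -0.16 ± 0.04 was also under 1.2-fold. It was called in 0 of 19 alternative settings. The J-domain co-chaperone Dnajc3 measured 84.99, 89.7, 93.2 and 93.99 CPM in Wt against 79.1, 83.8, 77.3, 72.3 and 79.03 in aSyn Tg without overlap, by a narrow margin (-0.20 ± 0.05, edgeR adjusted p = 0.0772). Dnajb11, which encodes ERdj3, measured 54.2, 49.8, 54.5 and 52.04 CPM in Wt and 50.6, 44.98, 47.9, 44.8 and 47.9 in aSyn Tg and overlapped. Dnajb9 (ERdj4) differed by -0.04 with a 95% interval of -0.19 to 0.12.

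Of the 8 lectins and isomerases, 7 had a negative difference and 3 fell. Calr, which retains glycoproteins and buffers calcium, measured 479, 534, 504 and 508 CPM in Wt and 421, 364, 399.7, 405 and 438 in aSyn Tg. The groups did not overlap, and the log2 fold change was -0.31 ± 0.05 (edgeR adjusted p = 0.00603). Canx, the membrane-bound lectin with the same glycan substrate, lay at 648 ± 25.8 CPM in Wt (mean ± SD, n = 4) and 637 ± 18.98 in aSyn Tg (n = 5), a difference of -0.02 with a 95% interval of -0.09 to 0.05. Among the isomerases, Pdia4 (ERp72) measured 146, 131, 141 and 133 CPM in Wt and 105, 93.2, 107, 102 and 112 in aSyn Tg. The highest aSyn Tg library stayed below the lowest Wt library, with a log2 fold change of -0.41 ± 0.05 (edgeR adjusted p = 0.00151). Pdia6, which also acts on the IRE1 sensor, measured 86.7, 84.8, 90.3 and 96.1 CPM in Wt and 74.6, 71.3, 70.996, 66.5 and 72.8 in aSyn Tg, without overlap, at -0.32 ± 0.05 (edgeR adjusted p = 0.00555). Pdia3 (ERp57), the isomerase that works with the lectins, differed by -0.18 ± 0.05 (edgeR adjusted p = 0.0791). P4hb, the founding protein disulfide isomerase, differed by -0.02, Txndc11 by -0.04 and Txndc5 (ERp46) by 0.09, each with a 95% interval that spans 0.

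**Figure D3:**
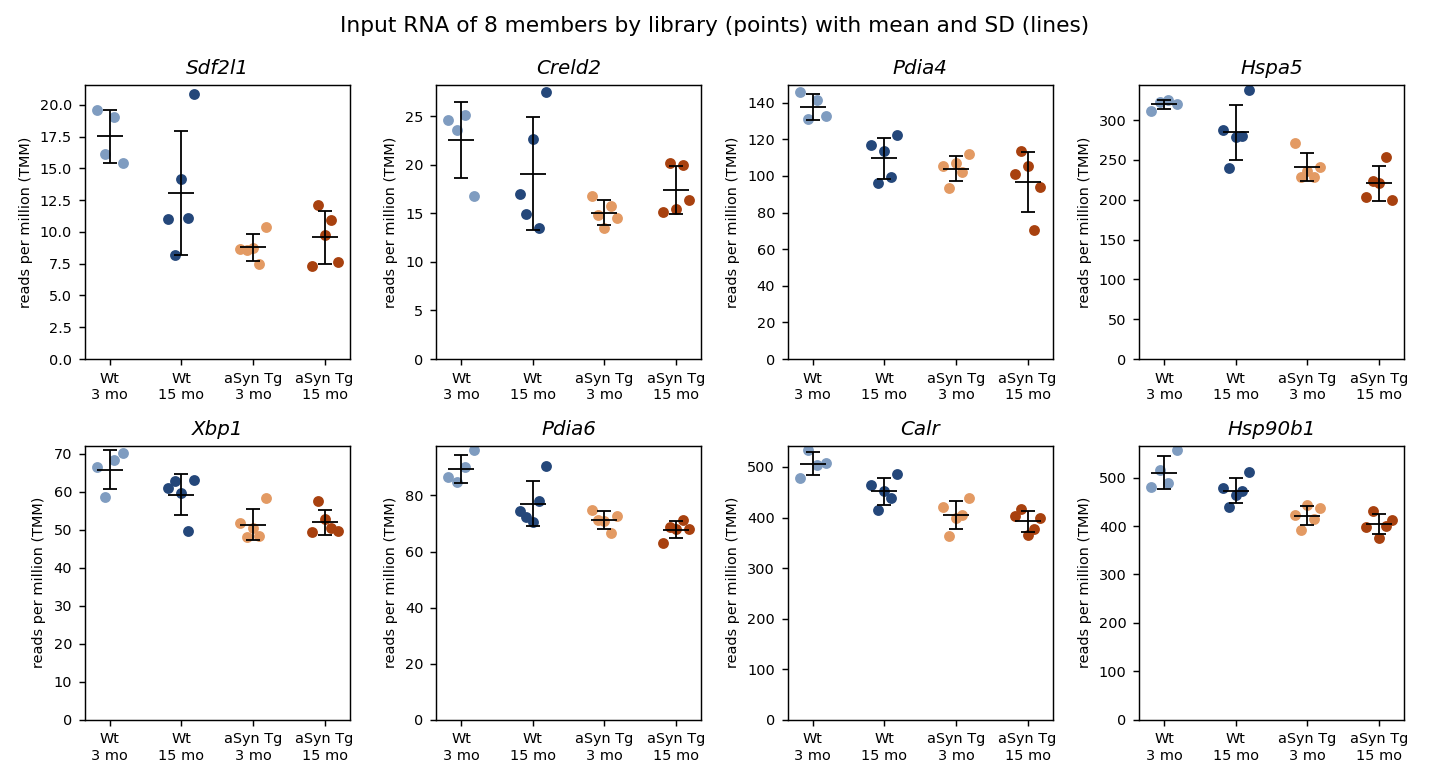
CPM with TMM scaling (axis from 0) of the 8 members called at 3 mo in the 19 input libraries (points, by group) with mean and SD (black lines). At 3 mo the Wt and aSyn Tg points are apart in every panel but Creld2, and at 15 mo they overlap in every panel but Hsp90b1.

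Among sensors and transcription factors, Xbp1 was the single gene to fall. It measured 66.5, 58.5, 68.3 and 70.1 CPM in Wt and 51.7, 48.1, 50.4, 48.4 and 58.3 in aSyn Tg, with the top aSyn Tg library just below the lowest Wt library. The log2 fold change was -0.36 ± 0.07 (edgeR adjusted p = 0.015004), and counts per gene do not separate spliced from unspliced Xbp1. Atf6b, a relative of Atf6, measured 42.1, 46.8, 42.3 and 41.9 CPM in Wt and 39.1, 38.3, 37.8, 37.8 and 41.2 in aSyn Tg, without overlap but with an edgeR adjusted p of 0.323. The 3 sensors differed little, at -0.08 ± 0.07 for Ern1, -0.04 ± 0.05 for Eif2ak3 and -0.03 ± 0.05 for Atf6, and their 95% intervals span 0. Downstream of PERK, none of the genes tested was called: Atf4 differed by 0.12 ± 0.06, Ddit3 by 0.05 ± 0.08 and Sesn2, a stress-induced regulator of growth signalling, by 0.00 ± 0.11.

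Of the 7 ERAD genes tested, 6 had a negative difference and 0 were called, with a range of -0.15 to 0.01. Syvn1, the Hrd1 ubiquitin ligase, measured 47.2, 43.2, 41.3 and 43.5 CPM in Wt and 36.2, 39.6, 38.6, 44.1 and 39.1 in aSyn Tg. Herpud1, a scaffold of the Hrd1 complex, measured 50.5, 48.1, 49.8 and 50.4 CPM in Wt and 44.4, 43.8, 48.3, 45.4 and 47.9 in aSyn Tg. Both pairs of groups overlapped, with edgeR adjusted p-values of 0.396 and 0.402. Derl2, a channel component of ERAD, measured 24.8, 22.1, 24.3 and 21.8 CPM in Wt and 20.6, 27.9, 23.3, 24.6 and 22.1 in aSyn Tg, with no shift (0.01 ± 0.10). Sel1l, the partner of Hrd1, differed by -0.08 ± 0.04, the mannosidase-like Edem1 by -0.11 ± 0.07, Os9 by -0.02 ± 0.04 and Derl1 by -0.05 ± 0.08. The channel subunit Sec61a1 differed by -0.13 ± 0.07.

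Over the 33 members tested at 3 mo, the median log2 fold change was -0.12 against -0.00 over all genes, and 28 were negative. The groups did not overlap, with aSyn Tg lower, for 10 members, against 2.31% of all genes. Leaving out 1 library at a time gave 6 to 9 members called. Hspa5, Sdf2l1, Calr, Pdia4 and Pdia6 were called each time, though in a single fit of all 4 groups, which called 6, Pdia4 was not (edgeR adjusted p = 0.0896), nor was Creld2 (0.301). Creld2 was lost without Wt library 2, 3 or 4 (edgeR adjusted p = 0.120, 0.0853 and 0.134) or aSyn Tg library 3 or 4 (0.0526 and 0.0822), and Xbp1 without Wt library 2 or 4 (0.0715 and 0.0776) or aSyn Tg library 4 (0.0508). Hsp90b1 came to less than 1.2-fold without Wt library 5 (-0.23) or aSyn Tg library 3 (-0.24), and Manf was called without aSyn Tg library 1 (edgeR adjusted p = 0.0182).

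Other cell types moved with genotype at 3 mo in a few marker lists, of which no gene was called. A marker is said to be at 0, here and below, where it had no reads in any library of a group. The summed level of 7 oligodendrocyte precursor markers (7 of 7 in the table, none at 0) was 465 to 493 CPM in Wt and 398 to 441 in aSyn Tg libraries, and that of 3 cholinergic markers (3 of 3, none at 0) was 35.5 to 48.1 and 49.4 to 112. Markers of B cells and of plasma cells, the latter rich in ER, summed to 16.1 to 20.5 CPM in Wt and 13.97 to 25.5 in aSyn Tg (3 of 7 listed genes in the table). Most of this sum was Ighm, at 15.3 to 19.8 CPM in Wt and 13.4 to 24.5 in aSyn Tg. The lowest library of each group had 0 CPM of Igkc. Choroid plexus and ependyma markers (6 of 8 in the table) summed to 41.9 to 52.4 CPM in Wt and 38.8 to 218 in aSyn Tg, whose median was 39.8. Of 8 endothelial and pericyte markers tested, 4 had a negative difference, 3 of them at an unadjusted p under 0.05 (edgeR). All 7 microglial markers tested had a negative difference, 1 of them at that p. The part of these cells in the members' difference was not tested.

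**Figure D4:**
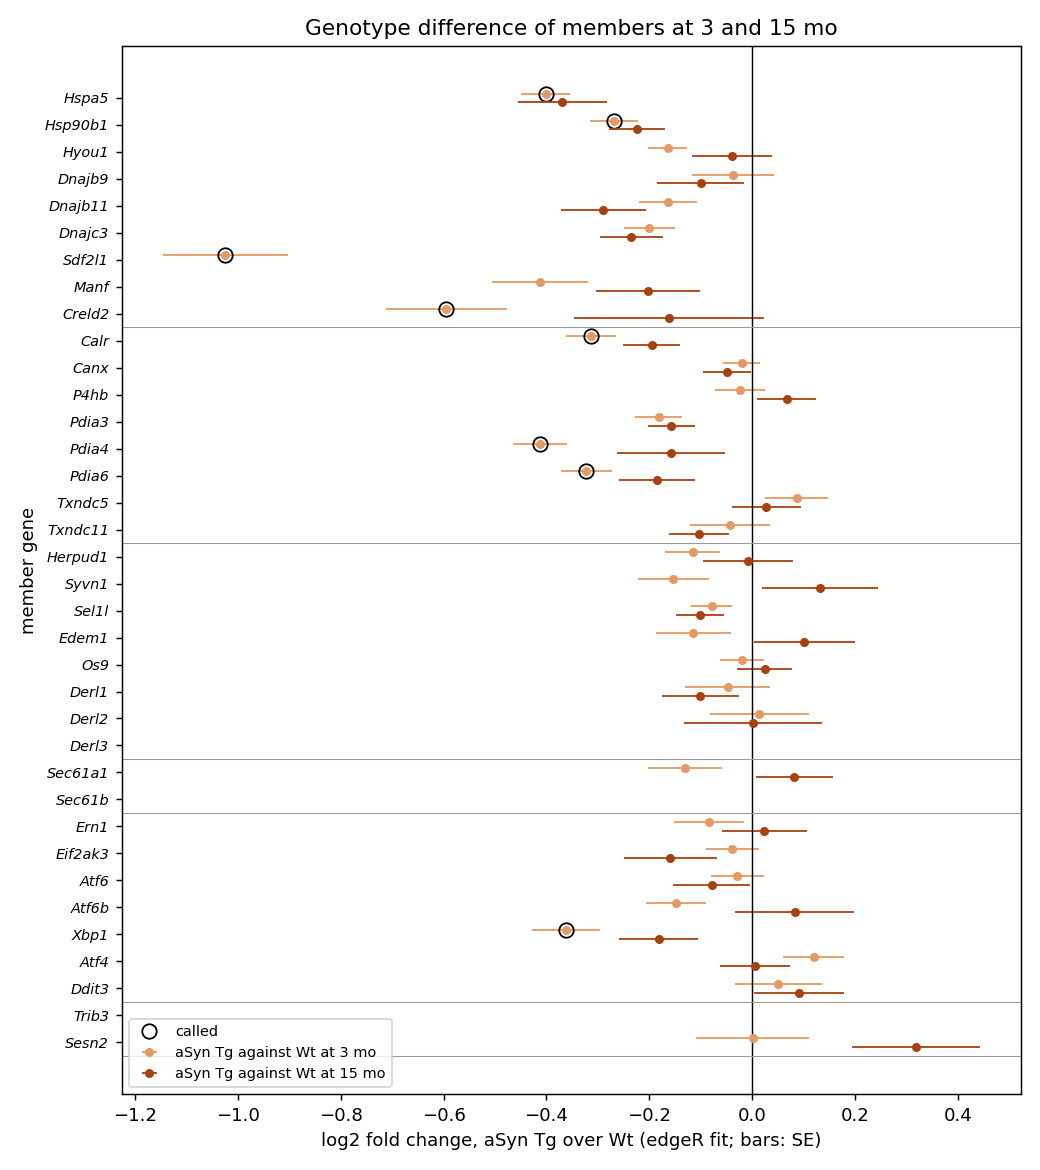
log2 fold change of aSyn Tg over Wt for each tested member at 3 mo and 15 mo (edgeR fits of 2 groups each; bars: SE; open circles: called). The 8 called values are all at 3 mo and range from -1.02 (Sdf2l1) to -0.27 (Hsp90b1), and Hspa5 lies at -0.40 and -0.37 at the 2 ages.

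At 15 mo, 0 of the 32 members tested were called by edgeR, against 0.220% of all 10471 genes. The 3 mo and 15 mo comparisons use different libraries. At an unadjusted p under 0.05, 9 members were lower and 1 higher in aSyn Tg mice, against 11.2% of all genes in either direction, and DESeq2 called 1 member (Hspa5, adjusted p = 0.0101) and limma voom 0. All 8 chaperones tested had a negative difference (median -0.21), while the 7 ERAD genes had a median of 0.00. The median over all tested members was -0.09 against 0.01 over all genes. Without aSyn Tg library 5, 0 of 33 members were called and their median was -0.083. The groups did not overlap, with aSyn Tg lower, for 4 members (Hsp90b1, Dnajb11, Dnajc3 and Pdia3), against 1.30% of all genes. Without library 5, Hspa5, Pdia6 and Derl1 did not overlap either. Groups separate more easily with a library left out, and the share over all genes was not computed for that setting, so nothing is read from it.

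Hspa5 measured 287, 240.3, 278, 279.9 and 337 CPM in the Wt libraries and 203, 224, 221, 254 and 199.96 in the aSyn Tg libraries at 15 mo. The groups overlapped through Wt library 2 and aSyn Tg library 5, and the log2 difference was -0.37 ± 0.09 (edgeR adjusted p = 0.139). Without aSyn Tg library 5 it was -0.42 ± 0.08 (edgeR adjusted p = 0.0702). Hsp90b1 measured 479, 440.2, 464, 472 and 511 CPM in Wt and 399, 432, 375, 399 and 412 in aSyn Tg, every aSyn Tg library being lower (-0.22 ± 0.05, edgeR adjusted p = 0.1597; -0.22 without library 5). Dnajb11 measured 46.9, 45.5, 51.1, 51.7 and 58.8 CPM in Wt and 41.4, 44.2, 43.7, 36.9 and 39.8 in aSyn Tg, every aSyn Tg library again being lower (-0.29 ± 0.08, edgeR adjusted p = 0.2403; -0.26 without library 5). Dnajc3 measured 85.1, 84.2, 87.2, 90.7 and 97.7 CPM in Wt and 70.8, 81.2, 72.2, 77.3 and 75.6 in aSyn Tg (-0.24 ± 0.06, edgeR adjusted p = 0.193, and -0.24 without library 5).

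Sdf2l1 was under the count limit at 15 mo. It measured 10.98, 8.18, 14.1, 11.1 and 20.9 CPM in Wt and 7.35, 12.1, 9.77, 10.98 and 7.67 in aSyn Tg, and the Wt libraries spread across nearly the whole range seen in the study. With the limit lowered to a mean count of 10 its log2 difference was -0.49 ± 0.23 (edgeR adjusted p = 0.468). Without library 5 it passed the limit of 50, at -0.52 ± 0.25 (edgeR adjusted p = 0.386). Creld2 measured 16.97, 14.9, 22.6, 13.4 and 27.5 CPM in Wt and 15.1, 20.2, 15.4, 19.96 and 16.4 in aSyn Tg, with the same Wt library 5 at the top, and overlapped (-0.16 ± 0.19, and -0.20 ± 0.19 without aSyn Tg library 5). Manf measured 30.9, 28.6, 34.1, 27.1 and 35.9 CPM in Wt and 26.7, 27.9, 28.3, 21.95 and 29.6 in aSyn Tg, with library 5 the lowest (-0.20 ± 0.10; -0.16 without it).

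Among lectins and isomerases at 15 mo, Calr measured 465, 414, 453, 439 and 486 CPM in Wt and 403, 418, 366, 377 and 398 in aSyn Tg. The overlap came down to 1 library on each side, at a log2 difference of -0.20 ± 0.06 (edgeR adjusted p = 0.232, and -0.18 without library 5). Pdia6 measured 74.6, 72.2, 70.4, 78.02 and 90.3 CPM in Wt and 63.2, 68.8, 68.005, 71.3 and 67.9 in aSyn Tg (-0.19 ± 0.07, edgeR adjusted p = 0.362, and -0.20 without library 5). Pdia4 measured 117, 96.2, 114, 99.6 and 122 CPM in Wt and 101, 114, 105, 70.4 and 93.9 in aSyn Tg, where library 5 was far below the others. Its difference moved from -0.16 ± 0.10 to -0.08 ± 0.08 without that library.

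In the regulatory genes at 15 mo, Xbp1 measured 60.9, 62.8, 59.6, 49.8 and 63.04 CPM in Wt and 49.5, 57.5, 52.8, 50.4 and 49.6 in aSyn Tg. The ranges overlapped through a low Wt library 4, at -0.18 ± 0.08 (edgeR adjusted p = 0.392, and -0.18 without library 5). Atf6b measured 36.2, 42.3, 38.3, 29.3 and 37.7 CPM in Wt and 33.8, 37.4, 40.6, 50.4 and 35.3 in aSyn Tg, with overlapping ranges and library 5 at the top (0.08 ± 0.12, and 0.00 ± 0.10 without it). Sesn2 was the 1 member higher at an unadjusted p under 0.05, at 15.7, 16.4, 11.7, 12.9 and 12.8 CPM in Wt and 16.6, 17.8, 15.8, 20.96 and 16.2 in aSyn Tg (0.32 ± 0.12, edgeR adjusted p = 0.359; 0.27 without library 5). The ERAD genes Syvn1, Herpud1 and Derl2 overlapped between the genotypes. Syvn1 measured 39.4, 41.9, 41.1, 32.4 and 46.7 CPM in Wt and 37.8, 39.8, 51.4, 51.9 and 42.2 in aSyn Tg. Herpud1 measured 50.2, 46.9, 50.7, 49.02 and 59.4 CPM in Wt and 46.4, 44.8, 52.6, 52.9 and 58.1 in aSyn Tg. Derl2 measured 18.2, 16.8, 25.000, 25.8 and 20.7 CPM in Wt and 20.6, 25.2, 18.9, 17.96 and 22.4 in aSyn Tg, with differences for the 3 genes of 0.13, -0.01 and 0.00, or 0.08, -0.02 and 0.04 without library 5.

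At 15 mo the summed level of 4 serotonergic markers (4 of 4 in the table) was 8.48 to 65.4 CPM in Wt and 96.8 to 168 in aSyn Tg libraries, with Tph2 and Slc6a4 called higher in aSyn Tg. Of 8 astrocyte markers tested, Gfap alone was called, higher in aSyn Tg (log2 fold change 1.03 ± 0.19, edgeR adjusted p = 0.0488). The other astrocyte markers did not follow it: at an unadjusted p under 0.05 (edgeR) 2 of the 8 were higher and 3 lower, with a median of -0.01. Markers of plasma and B cells (3 of 7) stood at 12.99 to 24.4 CPM in Wt and 15.97 to 112 in aSyn Tg libraries, or 22.3 to 112 without library 5. Markers of thalamus and hypothalamus tissue (6 of 9 in the table, none at 0) summed to 416 to 1120.5 CPM in Wt and 367 to 601 in aSyn Tg libraries (558 at most without library 5), with 5 of 5 tested lower in aSyn Tg at an unadjusted p under 0.05 (edgeR, median log2 difference -0.54) and 0 called. Of 6 dopaminergic markers tested, 3 were higher at that p and 0 called. The part of these cells and regions in the members' values was not tested.

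Over both ages together, in an additive fit that shares all libraries with the comparisons above, Hspa5 (-0.39 ± 0.05, edgeR adjusted p = 0.000456), Sdf2l1 (-0.76 ± 0.15, 0.0188) and Xbp1 (-0.27 ± 0.05, 0.0229) were lower in aSyn Tg mice. This fit, too, contains the Wt 3 mo libraries in which Sdf2l1 had its highest median. Of all 10905 genes, 0.174% were called and 0.119% were called lower. By adjusted p alone 8 members were lower, against 0.257% of all genes: these 3 with Hsp90b1, Dnajc3, Calr, Pdia3 and Pdia6, whose differences were under 1.2-fold. The count of 3 was 1 (Hspa5) without Wt 3 mo library 4 and 6 when library 2 of Wt 15 mo, or library 3 of aSyn Tg 15 mo, was left out. Sdf2l1 was lost without Wt 3 mo library 4 (edgeR adjusted p = 0.0533). Xbp1 was lost when any of 7 libraries was left out (2, 4 and 5 of Wt 3 mo, 5 of Wt 15 mo, and 3, 4 and 5 of aSyn Tg 3 mo), at edgeR adjusted p-values up to 0.0638, or for Wt 3 mo library 2 by a difference under 1.2-fold. Without aSyn Tg 15 mo library 5, 4 members were called. The difference between the age effects of the genotypes was called for 0 of 33 members, against 0.00917% of all genes, and 0 members had an unadjusted p under 0.05 (edgeR), against 10.5% of all genes. DESeq2 and limma voom also called 0. The largest such difference was that of Sdf2l1, at 0.53 with a 95% interval of -0.02 to 1.08, which does not show that the genotypes age alike.

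Ageing was compared within each genotype. In Wt mice, 0 of 33 members were called between 3 mo and 15 mo (edgeR), against 0.361% of all 10795 genes. At an unadjusted p under 0.05, 9 members were lower at 15 mo and 0 higher, against 15.6% of all genes, and DESeq2 called 1 (Pdia4, adjusted p = 0.00829) and limma voom 0. The median over members was -0.10 against 0.00 over all genes. Pdia4, with the values given above, was lower in every Wt library at 15 mo than at 3 mo. Of all genes, 5.25% had groups that did not overlap in either direction. The log2 difference of Pdia4 was -0.33 ± 0.07 (edgeR adjusted p = 0.0605, and 0.0296 without Wt 15 mo library 3). Calr differed by -0.16 ± 0.05, Pdia6 by -0.21 ± 0.07, Manf by -0.23 ± 0.10, Atf6b by -0.23 ± 0.09 and Hspa5 by -0.17 ± 0.07. For Sdf2l1 (-0.42 ± 0.21) and Creld2 (-0.23 ± 0.19) the SE was several times that of Calr, and Wt 15 mo library 5 stood at the top of both. Without Wt 15 mo library 4 the median over members was -0.054. The serotonergic sum was 141 to 181 CPM in Wt at 3 mo, above its range at 15 mo given above. Thalamus and hypothalamus markers summed to 333 to 621 CPM in Wt at 3 mo, with 5 of 5 tested higher at 15 mo at an unadjusted p under 0.05 (edgeR, median 0.78) and 0 called. Of the precursor markers, 6 of 7 were lower at that p and Gpr17 (-0.81) and Cspg4 (-0.44) were called, as was the cholinergic Slc5a7 (-1.26). Their part in the members' values was not tested.

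In aSyn Tg mice, 0 of 32 members were called between 3 mo and 15 mo (edgeR, DESeq2 and limma voom), against 0.918% of all 11005 genes by edgeR. Dnajb11 was the 1 member at an unadjusted p under 0.05, against 11.2% of all genes, and the 1 member whose groups were separate, against 3.45%. Its log2 difference was -0.18 ± 0.07 (edgeR adjusted p = 0.295). The largest other differences were Creld2 at 0.19 ± 0.11, Syvn1 at 0.16 ± 0.10, Derl2 at -0.15 ± 0.11, Herpud1 at 0.15 ± 0.07 and Hspa5 at -0.13 ± 0.07. The median over members was 0.01 against 0.00 over all genes. Without aSyn Tg 15 mo library 5, 0 of 32 members were called (edgeR), with Dnajb11 at -0.16 ± 0.06, Hspa5 at -0.18 ± 0.05 and a median of 0.015. The Hspa5 groups then did not overlap, though the share of all genes that separate without this library was not computed. Over both genotypes, 0 members were called with age by edgeR, DESeq2 or limma voom, against 1.47% of all genes by edgeR, and 7 members lay lower with an unadjusted p below 0.05, against 15.8%. The summed level of 8 microglial markers (8 of 8 in the table, none at 0) was 179 to 193 CPM in aSyn Tg at 3 mo and 237 to 345 at 15 mo, and 5 of them were called higher in the same comparison that called 0 members. Of the other marker lists in aSyn Tg ageing, Gfap was called higher (log2 difference 1.45). Cldn11 (-0.32), Ugt8a (-0.26), Chat (-0.84) and Lamp5 (-1.11) were called lower. The part of these cells and regions in the members' values was not tested.

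Set against the promoters, the 8 tested members that hold an ERSE had a median log2 difference of -0.29 at 3 mo. All 8 were negative and 5 were called (Hspa5, Hsp90b1, Creld2, Calr and Pdia6). The 20 tested members with a window and no ERSE had a median of -0.06, with 3 called (Sdf2l1, Pdia4 and Xbp1), and the 7 tested genes outside the members that hold an ERSE had a median of -0.06, with 0 called. At 15 mo the medians were -0.19 over 8 members with an ERSE, 0.00 over 19 without and -0.02 over 6 other genes, with 0 called. Canx, with an ERSE 145 bases upstream of the start, lay at the upper end of its set with a difference of -0.02 at 3 mo. Of all genes tested, 0.835% were called at 3 mo and 0.220% at 15 mo. No test was run on these sets, whose members were picked on the RNA values, and nothing is read from the counts called.

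Pathway neighbours outside the 36 genes were taken from 5 lists. At 3 mo, 0 genes were called among 29 tested in ER folding and glycan control (median -0.03), 26 in ERAD (0.01), 30 in translocation, signal peptidase and oligosaccharyl transferase (0.02), 20 UPR regulators (0.01) and 26 ATF4 targets (-0.01). At 15 mo, 0 genes of these lists were called, and the medians lay between -0.03 and 0.05. The shares called over all genes were 0.835% at 3 mo and 0.220% at 15 mo, so nothing is read from the counts of 0. With age, Eif2ak2, the kinase PKR that phosphorylates the same initiation factor as PERK and is induced by interferon, was the single gene called, higher at 15 mo in aSyn Tg mice (0.68 ± 0.13, edgeR adjusted p = 0.0287) and over both genotypes (0.50 ± 0.10, edgeR adjusted p = 0.00974).

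m6A is a methyl mark on adenosine, enriched near stop codons of many mRNAs and read by proteins that act on mRNA decay and translation. The peak lists played no part in the RNA values. Of the 36 members, 22 carried a consensus m6A peak in at least 1 of the 4 groups, 19 in all 4 and 14 in none. Restricted to genes whose input libraries averaged 50 normalised counts or more, the shares were 63.6% of 33 members and 59.4% of 10900 genes for any list, and 57.6% and 47.1% for all lists. The 14 without a peak included Hsp90b1, Hyou1, Dnajb11, Dnajc3, Sdf2l1, Creld2, P4hb, Pdia6, Edem1, Atf6b and Atf4, so the genes lower at 3 mo fell on both sides: Hspa5, Calr, Pdia4 and Xbp1 carried a peak, and Sdf2l1, Creld2, Pdia6 and Hsp90b1 did not. The 119 peaks of members merged into 30 locations, 24 of them present in all 4 lists. As merged spans, most sat at the end of the mRNA: 23 included 3' UTR, 11 covered the stop codon, 5 lay in coding sequence alone and 1, in exons 1 to 2 of Pdia4, reached into the 5' UTR. In 1 Os9 location, present in all 4 lists, no exon of the transcript used was touched. It lay at chr10:127094469-127094709, past the 3' end of the annotated gene (127095650-127121131, - strand).

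Each list gives 1 fold enrichment of immunoprecipitated over input reads per peak, pooled by the authors, so no error can be given, and the list taken as aSyn Tg 15 mo carries no group name and was assigned by elimination. The median enrichment over all peaks was 4.70 in Wt 3 mo, 4.94 in Wt 15 mo, 4.74 in aSyn Tg 3 mo and 5.22 in aSyn Tg 15 mo, against 3.82, 3.73, 3.92 and 4.08 over the members' peaks. The Hspa5 peak, over the stop codon in exon 9 (chr2:34775598-34776378, mm10, + strand), had values of 8.22 and 9.33 in Wt and 9.79 and 10.9 in aSyn Tg mice at 3 mo and 15 mo. The Calr peak over the stop codon in exons 8 to 9 (chr8:84842480-84842999, - strand) had 2.26 and 2.41 in Wt and 2.85 and 2.72 in aSyn Tg. The peak of Pdia4 over its stop codon (exon 10, chr6:47796261-47796830, - strand) had 5.81 and 6.73 in Wt and 6.41 and 7.09 in aSyn Tg, and the Xbp1 peak in the 3' UTR (exon 5, chr11:5525029-5525297, + strand) had 3.10 and 3.39 in Wt and 3.07 and 3.53 in aSyn Tg. These 4 genes with less RNA in aSyn Tg mice at 3 mo thus had pooled enrichments in aSyn Tg from just under to 1.26 times those in Wt at that age.

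Other locations varied more between lists. The Sel1l peak, in the 3' UTR (exon 21), was among the strongest of the members, at 9.23 and 12.4 in Wt and 9.73 and 13.3 in aSyn Tg mice. The larger Sesn2 peak in its 3' UTR (exon 10) stood at 6.58 and 8.75 in Wt and at 5.44 and 17.3 in aSyn Tg. The Ddit3 location in exon 4 stood at 5.26 and 62.8 in Wt, whose peaks lay in the 3' UTR alone, and at 6.73 and 5.48 in aSyn Tg, whose peaks also covered the stop codon, and 10.9% of the exon bases of Ddit3 are shared with other annotated genes. The Ern1 location in exon 22 was listed at 2.98 in Wt at 3 mo, in the 3' UTR alone, and over the stop codon at 5.28 in Wt and 7.22 in aSyn Tg at 15 mo. It was not in the aSyn Tg 3 mo list. The lowest value of a location in all lists was that of Canx, at 1.63 to 1.87. Of the 24 locations in all lists, 10 had a higher enrichment in aSyn Tg than in Wt at both ages (in Atf6, Calr, Canx, Derl1, Eif2ak3, Hspa5, Manf, Pdia4 and Sel1l), 4 a lower one (in Derl2, Herpud1, Pdia3 and Txndc5), and 10 neither. The same count over all shared peaks was not made, so nothing is read from it. The median over all peaks was also higher in aSyn Tg, at 4.74 against 4.70 at 3 mo and 5.22 against 4.94 at 15 mo. In 15 of the 24 locations, the fold enrichment was at least 3 in each list.

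Intervals that the authors listed as differing between 2 groups were found in 6 members: Calr and Os9 in 5 of 6 lists each, Canx in 3, Hspa5 and Pdia4 in 2 each and Sesn2 in 1. Between aSyn Tg and Wt at 3 mo, 2 members had one (Calr and Canx), 9.09% of the members with a peak, against 4.52% of all genes with a peak. Between aSyn Tg and Wt at 15 mo it was 3 members (Calr, Os9 and Pdia4), 13.6% against 4.03%. Between the ages in Wt it was 4 members (Calr, Hspa5, Os9 and Pdia4), 18.2% against 5.01%, and in aSyn Tg 2 (Os9 and Sesn2), 9.09% against 4.73%. These lists were used for positions alone and carry no test here, and lists that share a group are not independent.

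**Figure D5:**
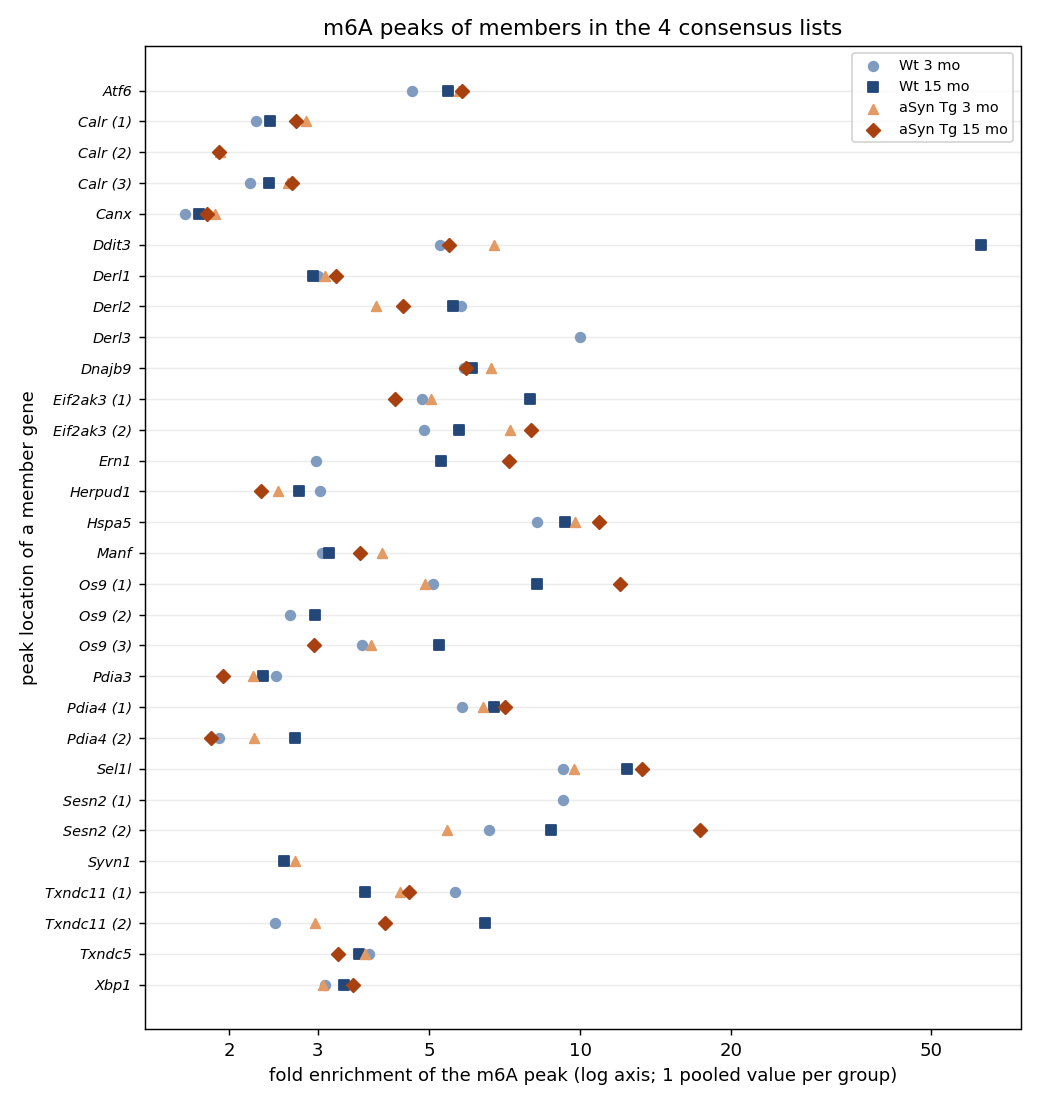
Fold enrichment (log axis) of each m6A location of the members in the consensus lists of the 4 groups (rows: locations, numbered along the chromosome where a gene has several; 1 pooled value per group and no error). Values run from 1.63 (Canx) to 62.8 (Ddit3 in Wt 15 mo), and of the 24 locations in all 4 lists, 10 lie higher and 4 lower in aSyn Tg than in Wt at both ages. The same count over all shared peaks was not made.

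Within groups, the members also varied from library to library. After each library was centred on its group mean, the log2 CPM of Hspa5 over the 19 libraries was most like that of Unc119 (r = 0.90), Sdc4 (0.82), 2810428I15Rik (0.81), Sstr1 (0.80) and Gpt2 (0.78) among 10904 genes, followed by Bcl2l1, Mdm2, Sdf2l1, Rcan1 and Zfp30 at 0.76 to 0.77. Of the members, Sdf2l1 ranked 8 and Pdia6 20 (0.73), while Xbp1 (0.16) and Pdia4 (0.03) did not follow Hspa5. For Sdf2l1 the closest were Plce1 (0.89), Zcchc24 (0.81), Ssh2 (0.80), Rftn2 (0.78) and Gadd45gip1 (0.77), with Creld2 at rank 6 (0.77), then Pygb, Pum3, Dbt and Hspa5. These values describe libraries that share a scaling and differ in depth, and no p is given.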

How the data were processed

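Input RNA libraries and m6A immunoprecipitated libraries came from midbrain RNA that the authors ribo-depleted, fragmented and sequenced single-end. The labels list 40 samples, 5 input and 5 immunoprecipitated per group, and 19 input libraries were in the table used. The study's methods name Cutadapt, STAR (mm10), featureCounts, DESeq2 and RUVseq for RNA and MeTPeak and exomePeak for peaks, while the submitters' processing notes name mm9 and DESeq. Of the consensus peaks, 99.8% lay inside their gene's GRCm38 (mm10) span. The deposited signal per gene and library is a read count that the authors divided by a size factor. Whole reads were recovered from its steps (100% of 395295 values, tolerance 0.01), so a count test was used. The deposited fold enrichment, 1 ratio per peak, is the authors' pooled value of immunoprecipitated over input reads. Columns with the authors' fold changes, p-values and adjusted p-values were not used, and their lists of differing intervals gave positions only.

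Genes with a mean normalised count of at least 50 were fitted in edgeR 4.0.16 (R 4.3.3; TMM, quasi-likelihood), with 2 groups alone, an additive model for the main effects and an interaction term. P-values were adjusted over all genes tested (Benjamini-Hochberg), and a gene was called at 0.05 and 1.2-fold (no fold limit for the interaction). The SE of an edgeR fit was derived from the log2 fold change and the F statistic of its test. The 95% intervals multiply this SE by a normal quantile, which makes them somewhat narrow for so few libraries. DESeq2 1.42.0, limma 3.58.1 (voom), other count limits, factors of unwanted variation, a single fit, a replicate block and leaving out each library were alternatives. The edgeR fits of 2 groups were checked on simulated counts, and the other models and alternatives were not. The members and lists were chosen with earlier results of these data known. Values per library are given for members called in a 2-group comparison or a main effect and for the 6 largest differences of each 2-group comparison. Libraries held 2163856 to 9195756 reads, which limits low genes such as Sdf2l1 most. Promoter letters came from RefSeq windows of GRCm38.p6. The level of the transgene's own product is not reported here.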

Additional observations from a re-analysis of the deposited data

Results flagged for a closer look

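Of 64 sets of 4 or 5 library values tested for a sample far from the others, 3 stood out, where chance gives about 1 in 20. Hspa5 measured 271.43 CPM in aSyn Tg 3 mo library 1, and 229 to 241 in the other libraries of that group. Atf6b measured 46.75 CPM in Wt 3 mo library 3, and 41.9 to 42.3 in the others. Xbp1 measured 49.81 CPM in Wt 15 mo library 4, and 59.6 to 63.04 in the others.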

How the results depend on the processing

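At 3 mo the count of 8 members was 4 with a replicate block (Hspa5, Calr, Sdf2l1 and Pdia4), 6 in a single fit of all 4 groups (without Pdia4 and Creld2) and 6 to 9 with 1 library left out. In fits of 2 groups the block kept only libraries whose number occurs in both groups, 3 pairs at 3 mo. The block fits of 2 groups therefore also used fewer libraries. At 15 mo the count of 0 was 1 with DESeq2, 1 with 2 factors of unwanted variation (Hspa5 in both) and 2 with all 4 groups in a single fit (Hspa5 and Dnajb11). In Wt ageing the count of 0 was 1 (Pdia4) with DESeq2, with 1 factor and with 2 factors, and 0 to 1 with 1 library left out, while the median of members then ran from -0.11 to -0.054. For genotype over both ages the count of 3 was 8 by adjusted p alone, 5 with DESeq2, 5 with 1 factor, 5 with 2 factors, 2 with the block and 1 to 6 with 1 library left out. A fold enrichment of at least 3 left 15 of 24 shared m6A locations, and 1 mismatch gave 15 members with an ERSE. The median of members in aSyn Tg ageing, near 0, ran from -0.0074 to 0.024 over the alternatives, that of the interaction was positive and those of the other 5 comparisons negative under every one, and the 8 members called at 3 mo were lower under every alternative, while Canx, Txndc11, Os9, Derl1, Derl2, Atf6, Ddit3 and Sesn2, which were not called, changed sign under some. The causes were not tested.

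Counts over all genes moved more, as follows where by over 1.5 times. At 3 mo 95 became 63 with limma voom, 162 with no count limit, 223 with 2 factors, 13 in a single fit, 44 with the block and 28 to 165 with 1 library left out. At 15 mo 23 became 88 with DESeq2, 42 with no limit, 41 with 1 factor, 84 with 2, 101 in a single fit, 39 with the block and 11 to 42 with 1 library left out. In Wt ageing 39 became 118 with DESeq2, 150 with 1 factor, 463 with 2, 80 in a single fit, 4 with the block and 0 to 326 with 1 library left out. In aSyn Tg ageing 101 became 159 with DESeq2, 217 with a limit of 10, 256 with none, 181 with 1 factor, 252 with 2, 43 with the block and 52 to 138 with 1 library left out. Age over both genotypes went from 160 to 278 by adjusted p alone, 287 with a limit of 10, 333 with none, 249 with 1 factor and 314 with 2. Genotype over both ages went from 19 to 37 by adjusted p alone, 41 with DESeq2, 97 with 1 factor and 198 with 2, and the interaction from 1 to 23 with DESeq2, 5 with limma voom, 9 with no limit, 11 with 1 factor, 104 with 2 and 0 to 20 with 1 library left out. Deviations of libraries with the same number correlated at -0.28 to 0.30 (3 or 4 pairs a comparison), not above 0.1 in every pair, so the numbers were not taken as pairs.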
